A study of Mus musculus with 8 samples.

Results

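The genes described here encode the proteins of the mitochondrial respiratory chain that are made from nuclear DNA, together with a few of their assembly factors. They were chosen by their symbols in the deposited table, as those that begin with Nduf (complex I), Sdha to Sdhd (complex II), Uqcr (complex III), Cox4 to Cox8 (complex IV) or Atp5 (complex V). This gave 90 genes of the 21915 in the table, of which 42 belonged to complex I, 6 to complex II, 8 to complex III, 17 to complex IV and 17 to complex V. Of the 90, 81 were classed as subunits and 6 as assembly factors. Cox4nb, Atp5s and Atp5sl were classed as neither, although they carry the prefix of a subunit family. They are counted with the complex of that prefix. Atp5l-ps1 and Atp5l2, pseudogenes by symbol or annotated type, were left out. The family was selected on earlier results of the comparison of Kap1 KD and control cells, so its values in that comparison are given as a description, and the counts of calls printed there are not used as support for anything.

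The respiratory chain sits in the inner mitochondrial membrane. Complex I takes electrons from NADH and complex II takes them from succinate, complex III passes them from ubiquinol to cytochrome c, and complex IV hands them to oxygen. Complexes I, III and IV pump protons, and complex V, the ATP synthase, uses the resulting gradient to make ATP. Complex II is encoded by nuclear genes alone, whereas the others combine nuclear subunits with subunits made inside the mitochondrion. Hepatocytes rely heavily on oxidative phosphorylation, and transcription factors such as NRF1, GABP (an ETS factor) and YY1 are known to act at promoters of respiratory genes.

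The measurements were poly(A)+ RNA sequencing counts from 4 samples of Hepa 1-6 cells, a mouse hepatoma line, within a series of 8 samples. In 2 samples the cells carried an shRNA against Kap1 (gene symbol Trim28), a corepressor that KRAB zinc-finger proteins bring to DNA. The other 2 carried the control plasmid, described in the methods as an empty vector, and every sample was taken 5 days after lentiviral transduction. Total counts ran from 41566888 to 53605115 per sample. No source says whether samples of a group came from separate cultures, so p-values measure the spread between these samples, which may be technical. Only 1 sample of each group has a number, 2, in its title, and the unnumbered ones are called replicate 1. Values per sample are given below in the order control replicate 1, control replicate 2, Kap1 KD replicate 1, Kap1 KD replicate 2.

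The knock-down itself was visible in the counts. Trim28 stood at 456, 575, 106 and 78.9 CPM (read counts scaled to the library size by the trimmed mean of M-values, TMM), a log2 change of -2.48 (SE 0.25, n = 2 per group). Hepatocyte genes were only partly present. Alb (albumin) stood at 1580, 1037, 975 and 441 CPM. Afp stood at 697, 750, 604 and 445 CPM and Hnf4a at 110, 203, 85.4 and 149 CPM. Apob, Fgb and Trf lay between 6.60 and 32.3 CPM. Ttr and Serpina1b, which hepatocytes express strongly, had 0 to 13 counts per sample, Apoa1 had 5 to 21 and Apoa2 72 to 102. Of the 8 hepatocyte markers that could be tested, 7 were lower in Kap1 KD in both pairs, among them Apoa1 with its few counts. Marker genes of other cell types summed to between 19.02 and 25.03 CPM per sample. In bulk RNA, fewer cells of a type and less RNA per cell cannot be told apart.

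Promoters of the respiratory genes were examined first, because motifs for these factors are the best known feature that the genes share and that the choice by symbol did not use. RefSeq promoters (assembly GRCm38.p6, 250 bases before to 50 bases after the start of the gene) were found for 75 of the 90 genes. The letters GCGCATGCG (NRF1), CCGGAAG (ETS) and AAGATGGC (YY1) were searched on both strands. A few genes had more than 1 start, so that the 75 genes had 81 promoters, and a gene was counted once if any of its promoters held the letters. NRF1 letters were found for 9 of the 75 genes (12%) and for 1.95% of all 27025 genes with a promoter. For ETS the counts were 19 of 75 (25.3%) and 9.93%, and for YY1 they were 11 of 75 (14.7%) and 3.19%. Altogether 34 of 75 (45.3%) held at least 1 of the 3 motifs, beside 14.1% of all genes. This background holds every gene with a promoter and was not matched to the respiratory genes by expression level.

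The motifs were spread unevenly over the complexes. YY1 letters were found for 7 of 37 complex I genes and 4 of 16 complex V genes and for none of the 22 genes of complexes II, III and IV. Atp5sl was among the complex V genes with YY1 letters. ETS letters were found for 4 of the 5 complex II genes, Sdhb, Sdhd and the assembly factors Sdhaf1 and Sdhaf2. For complexes I, III, IV and V the counts were 5 of 37, 2 of 5, 3 of 12 and 5 of 16. NRF1 letters were found for 3, 0, 2, 1 and 3 genes of complexes I to V. A match describes the letters in this window and is not evidence of binding.

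The following 5 promoters are shown because they hold NRF1 or ETS letters and belong to genes whose values are described below. In addition, the same NRF1 letters stand in promoters of genes that differed in opposite directions between the replicates. Other genes described below held none of the letters, among them Cox5a, Cox5b, Atp5d, Cox7b, Uqcrfs1 and Ndufa13. Capitals mark the matched motifs. Uqcrc1 encodes a core protein of complex III (chr9:108936398-108936697, plus strand), Ndufa11 an accessory subunit of complex I (chr17:56717512-56717811, plus strand), Ndufaf4 a complex I assembly factor (chr4:24897833-24898132, plus strand), Cox6a1 the widely expressed isoform of a complex IV subunit (chr5:115348909-115349208, minus strand) and Cox8a that of another small complex IV subunit (chr19:7217567-7217866, minus strand).
Uqcrc1: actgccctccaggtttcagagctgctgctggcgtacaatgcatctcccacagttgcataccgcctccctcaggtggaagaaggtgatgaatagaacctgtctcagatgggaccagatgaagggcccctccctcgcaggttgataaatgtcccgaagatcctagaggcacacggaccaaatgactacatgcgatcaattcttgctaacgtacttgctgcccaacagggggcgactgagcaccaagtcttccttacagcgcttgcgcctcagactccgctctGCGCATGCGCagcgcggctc
Ndufa11: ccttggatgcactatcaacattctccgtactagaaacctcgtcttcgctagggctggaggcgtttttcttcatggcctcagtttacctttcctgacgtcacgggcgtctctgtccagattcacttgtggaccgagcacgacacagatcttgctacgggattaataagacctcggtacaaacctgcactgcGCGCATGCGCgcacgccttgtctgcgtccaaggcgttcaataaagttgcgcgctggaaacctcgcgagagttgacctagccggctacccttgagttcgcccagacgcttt
Ndufaf4: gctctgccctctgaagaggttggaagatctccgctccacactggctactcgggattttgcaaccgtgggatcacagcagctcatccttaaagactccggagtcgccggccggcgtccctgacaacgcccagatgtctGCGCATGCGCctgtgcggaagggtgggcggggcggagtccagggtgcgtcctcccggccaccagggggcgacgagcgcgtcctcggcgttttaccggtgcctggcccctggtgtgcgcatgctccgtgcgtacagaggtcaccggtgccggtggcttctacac
Cox6a1: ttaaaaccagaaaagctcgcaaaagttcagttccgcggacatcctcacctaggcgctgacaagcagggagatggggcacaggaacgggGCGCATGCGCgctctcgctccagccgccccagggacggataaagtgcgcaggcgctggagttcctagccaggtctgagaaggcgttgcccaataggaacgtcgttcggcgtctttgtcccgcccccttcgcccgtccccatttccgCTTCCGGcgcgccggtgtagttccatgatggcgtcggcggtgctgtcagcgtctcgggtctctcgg
Cox8a: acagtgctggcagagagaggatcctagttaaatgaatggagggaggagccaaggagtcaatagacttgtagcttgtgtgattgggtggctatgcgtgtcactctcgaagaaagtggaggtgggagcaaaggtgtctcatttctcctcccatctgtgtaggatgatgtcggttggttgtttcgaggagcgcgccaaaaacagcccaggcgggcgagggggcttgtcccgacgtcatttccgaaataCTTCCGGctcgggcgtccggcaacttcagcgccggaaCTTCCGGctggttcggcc

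In the first 4 the capitals of the NRF1 motif cover the palindrome GCGCATGCGC, where a forward and a reverse match overlap. It began 30 bases after the start of Uqcrc1, and 60, 113 and 162 bases before the starts of Ndufa11, Ndufaf4 and Cox6a1. Cox6a1 also held the ETS letters on the reverse strand 16 bases before its start. Cox8a held them at 2 places, 5 bases before and 32 bases after its start.

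Respiratory genes were among the abundant transcripts of these cells. Of the 90, 85 passed the low-count filter with 14142 genes in all, and their median level was 69.6 FPKM (TMM-scaled CPM per kb of exon union, mean of 4 samples), beside 5.46 FPKM over all tested genes. Ndufa4l2, Cox4i2, Cox7b2, Cox8b and Cox8c had 0 to 3 counts in each sample and were not tested. They encode isoforms known from hypoxic cells, lung, testis or muscle. Cox7a1, the heart and muscle isoform, passed the filter with only 1.67 FPKM. In the Cox4, Cox7a, Cox7b and Cox8 families the widely expressed members carried the signal, with Cox4i1 at 862, Cox7a2 at 89.9, the related Cox7a2l at 159, Cox7b at 68.7 and Cox8a at 436 FPKM. The muscle marker list was not detectable either, at no more than 0.0855 CPM in sum per sample.

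**Figure D1:**
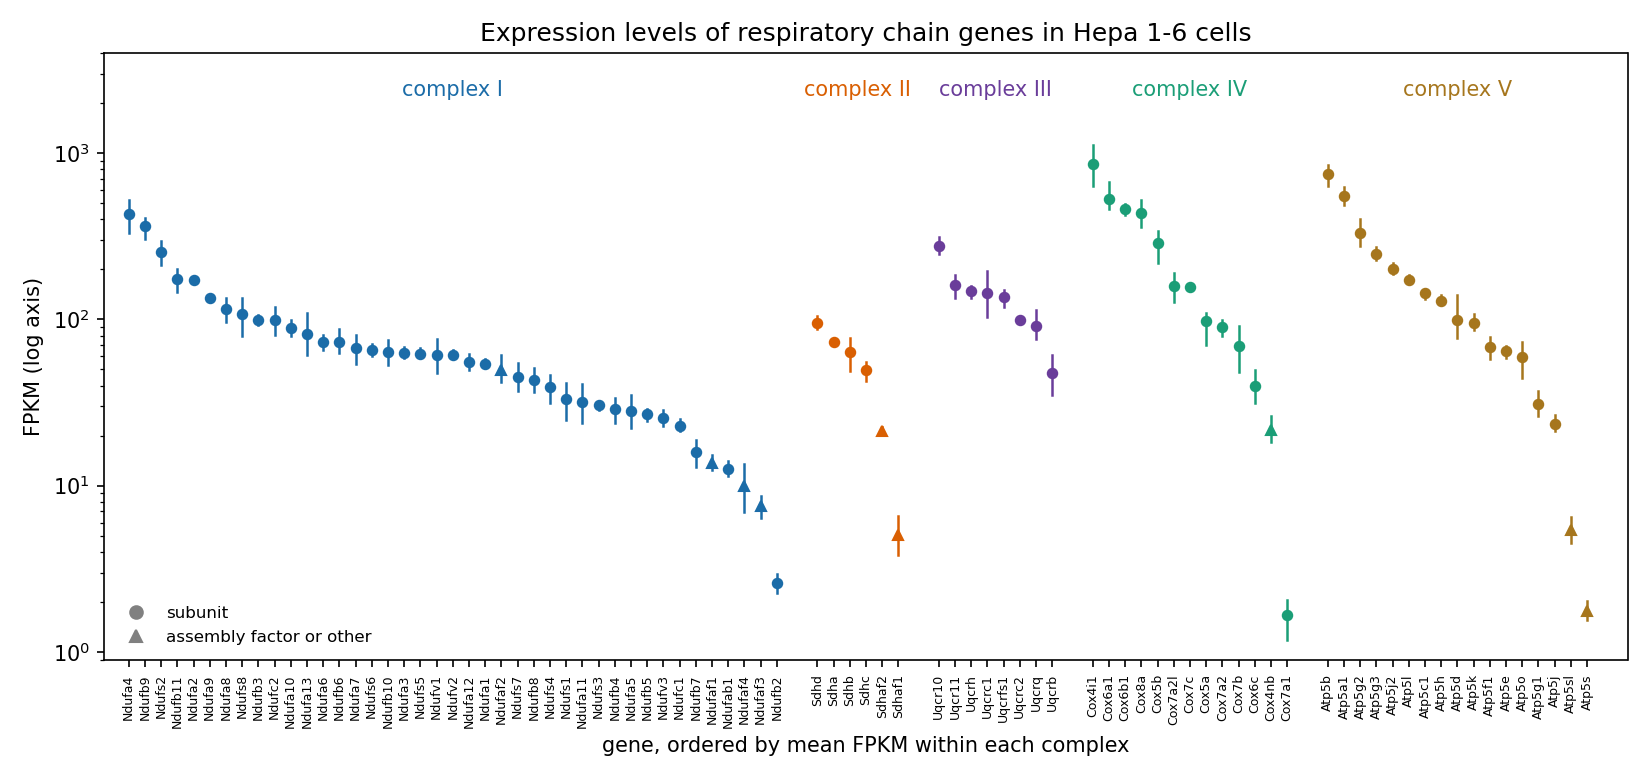
Mean FPKM of the 85 tested genes on a log axis, ordered within each complex, with lines from the lowest to the highest of the 4 samples. Cox4i1 (862 FPKM) and Atp5b (746 FPKM) stand highest, and the spread between genes of a complex is much wider than the spread between samples.

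The complexes differed in level. Median FPKM was highest for complex IV at 150 (SD of the median over the 4 samples 14.7), then complex III at 129 (SD 9.87), complex V at 100.1 (SD 17.5), complex I at 57.7 (SD 3.29) and complex II at 56.1 (SD 9.01). This order of complexes IV, III and V held in each of the 4 samples, and complexes I and II lay below them in each. Complexes I and II did not differ beyond their spread and changed places between the replicates. The order of complexes III and V depended on the measure. With subunits alone the median of complex V was 133 FPKM, above complex III at 129, and complex V was the higher in both replicate 1 samples. By the mean of the members complex V had 175 and complex III 138 FPKM, and with the length of the longest transcript their medians were 145 and 147 FPKM. Within complexes the range was wide. In complex I it ran from Ndufa4 at 428 FPKM, a subunit now placed in complex IV, down to Ndufb2, an accessory subunit, at 2.62 FPKM over an exon union of 5628 bases. Complex II ran from Sdhd, a membrane anchor, at 94.7 down to the assembly factor Sdhaf1 at 5.06, and complex III from Uqcr10 at 278 down to Uqcrb at 47.7 FPKM, both small accessory subunits.

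ATP synthase took the largest part of the counts. The 90 genes together held 1.49%, 1.62%, 1.58% and 1.67% of the 4 libraries, and the 17 genes of complex V alone 0.686%, 0.766%, 0.741% and 0.788%. Atp5b, the catalytic beta subunit, averaged 746 FPKM and Atp5a1, the alpha subunit that forms the same ring, 555 FPKM. The 3 genes of the c subunit, which builds the membrane rotor, stood at 31.1 (Atp5g1), 332 (Atp5g2) and 246 FPKM (Atp5g3). The lowest tested gene counted under complex V was Atp5s, which was not classed as a subunit, at 1.75 FPKM.

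Kap1 KD and control cells were then compared. By edgeR's quasi-likelihood test without a replicate term, no respiratory gene had an adjusted p under 0.05 with a 1.5-fold change, and neither did any of the 14142 genes (0.0%). At an unadjusted p under 0.05 there were 0 of 85 respiratory genes and 185 of all genes. DESeq2 called 0 respiratory genes and 3 of all genes. The adjusted p was 0.99994 for each of the 85, and also for Trim28, whose groups do not overlap and to which DESeq2 gave 2.57e-10. With 2 samples in each group, an exact permutation test of 1 gene cannot go below p = 0.333.

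Changes within each replicate pair were small. The log2 change (of CPM + 0.5) was above 0 in both pairs for 54 of 85 respiratory genes (63.5%), beside 32.8% of all tested genes, and below 0 in both for 14 (16.5%), beside 38.1%. The family's median was 0.09 for replicate 1 and 0.06 for replicate 2, and that of all genes -0.02 and -0.00. With scaling to total counts the medians became 0.07 and -0.01 for the respiratory genes and -0.04 and -0.07 for all genes, so the direction of the replicate 2 median flipped, and 36 of the 85 genes, beside 25.8% of all genes, were then above 0 in both pairs. Both Kap1 KD samples lay above both controls for 14 of 85 genes (16.5%), beside 9.69% of all genes, and below both for 6 (7.06%), beside 10.6%. Since the family was selected on this comparison, these shares are not a finding about it. The hepatocyte markers moved with the groups as well, with medians of -0.39 and -0.62 in the pairs, and their part in these values was not tested.

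The medians of the 5 complexes lay close together. In the replicate 1 pair they were 0.10, 0.11, 0.06, 0.04 and 0.12 on the log2 scale for complexes I to V. In the replicate 2 pair they were 0.06, 0.03, 0.09, 0.15 and 0.09, and with total-count scaling -0.01 for complex I and -0.04 for complex II. Complex IV came lowest in the first pair and highest in the second. Complex IV also had the widest spread of its genes in the replicate 2 pair, with an interquartile range of 0.46, beside 0.14, 0.17, 0.21 and 0.13 for complexes I, II, III and V. No respiratory gene changed by 1.5-fold in the replicate 1 pair, beside 2.43% of all genes, and 3 did so in the replicate 2 pair (3.53%), beside 4.96%.

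**Figure D2:**
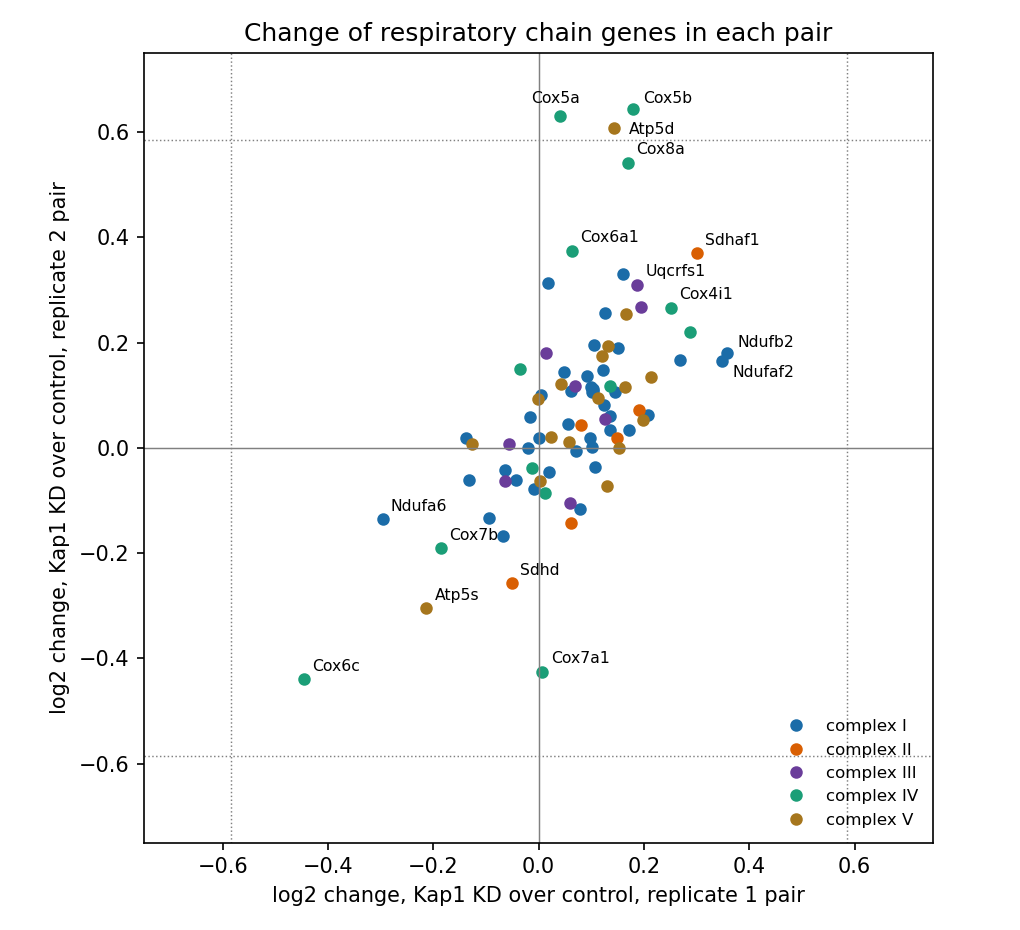
Log2 change of Kap1 KD over control in the replicate 1 pair (horizontal) and the replicate 2 pair (vertical), 1 point for each of the 85 genes coloured by complex, with dotted lines at 1.5-fold. Cox5a, Cox5b and Atp5d lie above the upper dotted line, between 0.61 and 0.64 in the replicate 2 pair but at 0.04 to 0.18 in the replicate 1 pair, while Cox6c lies at -0.45 and -0.44.

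Those 3 genes were Cox5a, Cox5b and Atp5d. Cox5a, a nuclear subunit on the matrix side of complex IV (chr9:57369039-57380231, plus strand, NCBIM37, the mm9 assembly), stood at 72.3, 48.5, 74.4 and 75.3 CPM. Both Kap1 KD samples were above both controls, but 3 of the 4 samples were nearly equal and control replicate 2 stood alone below them. Cox5a changed by 0.04 between the replicate 1 samples and by 0.63 between the replicate 2 samples. Cox5b, the neighbouring zinc-binding subunit (chr1:36748332-36750230, plus strand), stood at 157, 124, 178 and 194 CPM. Here too the groups did not overlap, with changes of 0.18 and 0.64 and a fitted log2 change of 0.40 (SE 0.20). Exons of Cox5a overlap those of the noncoding gene Gm17596 on the other strand over 38.7% of their length, but that gene had only 7 to 13 counts per sample.

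Cox8a (chr19:7289648-7292106, minus strand), whose promoter is printed above, stood at 222, 195, 250 and 283 CPM. The groups did not overlap, and the changes were 0.17 and 0.54, with a fitted log2 change of 0.36 (SE 0.18). For these 3 complex IV genes control replicate 2 was the lowest sample and Kap1 KD replicate 2 the highest. Atp5d, the delta subunit of the ATP synthase stalk (chr10:79601377-79608563, plus strand), stood at 148, 178, 164 and 271 CPM. Kap1 KD replicate 1 lay below control replicate 2, so the groups overlapped, and 1 sample was far above the rest. The changes of Atp5d were 0.14 and 0.61. With 1 sample in each cell of the design, a difference between the pairs cannot be tested.

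Sdhaf1, an assembly factor that helps insert iron-sulfur clusters into complex II, completed the 5 largest increases. It stood at only 3.68, 4.82, 4.65 and 6.37 CPM, with changes of 0.30 and 0.37, and its groups overlapped. Cox4i1, a structural subunit with isoforms and the highest of the family in FPKM over the exon union (Atp5b was higher in CPM, and over the longest transcript at 1649 FPKM), stood at 429, 636, 511 and 765 CPM. Its pairs were alike at 0.25 and 0.27, although the groups overlapped because both replicate 2 samples were higher than their replicate 1 counterparts. Uqcrfs1, the Rieske iron-sulfur protein of complex III, stood at 179, 162, 204 and 201 CPM, with no overlap and changes of 0.19 and 0.31. Cox6a1 stood at 323, 364, 337 and 472 CPM, with overlapping groups, 1 high sample in Kap1 KD replicate 2 and changes of 0.06 and 0.37. Cox7a2l, which takes part in joining complexes III and IV into supercomplexes, changed by 0.29 and 0.22 at 147, 187, 179 and 218 CPM, and its groups overlapped. Ndufa4 moved in opposite directions in the pairs (0.08 and -0.12) at 245, 177, 258 and 163 CPM, with the replicate 2 samples low in both groups.

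**Figure D3:**
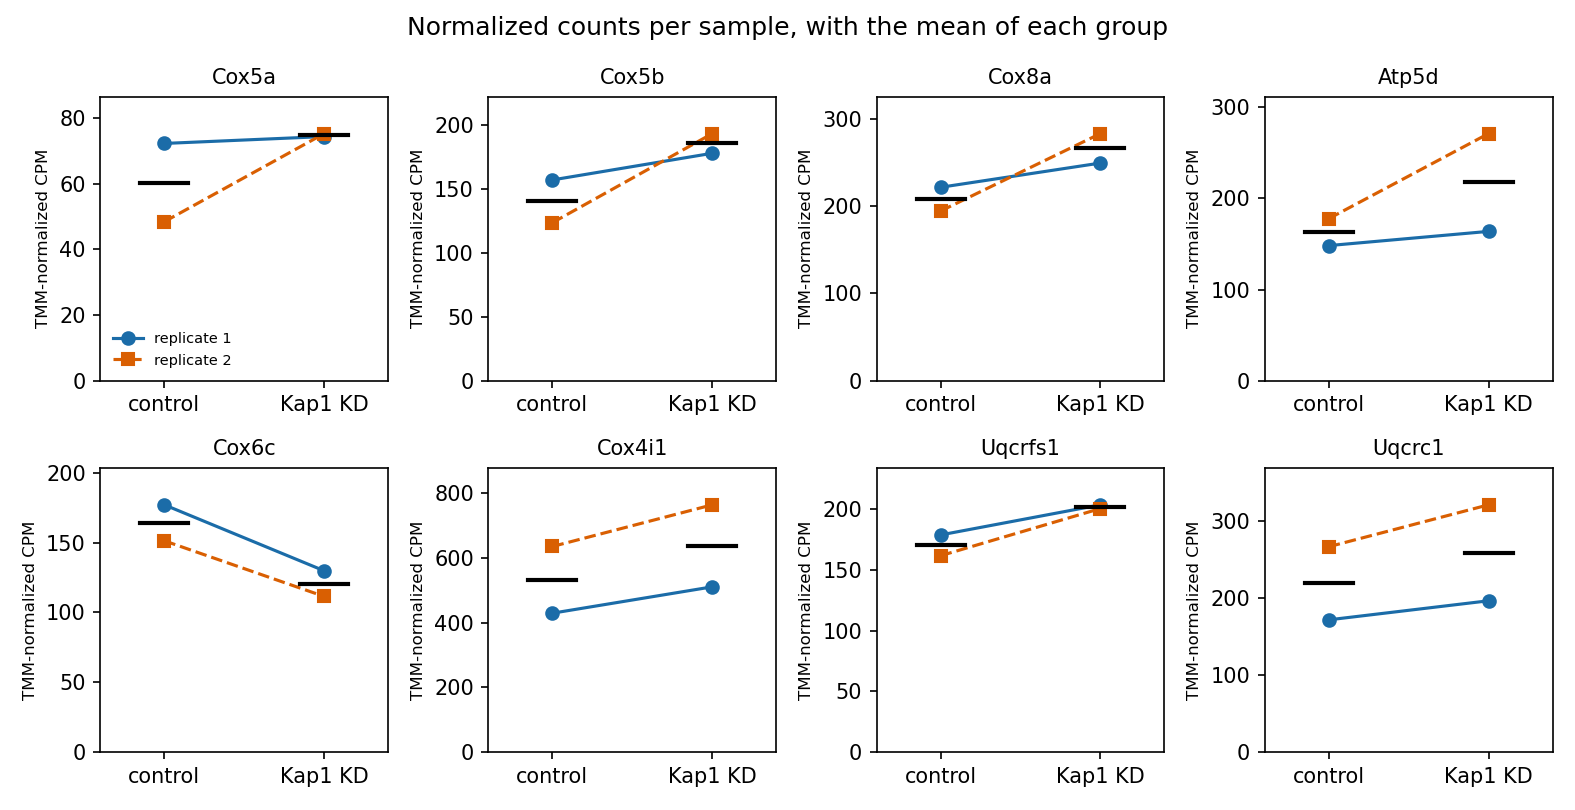
TMM-normalized CPM of 8 respiratory genes in each sample, with lines joining samples of the same replicate number and bars at the group means (n = 2). In Cox5a, Cox5b and Cox8a the replicate 2 line is the steeper, in Cox6c the lines run in parallel downward, and in Cox4i1 and Uqcrc1 the replicates are farther apart than the groups.

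Cox6c showed the largest decrease of the family. This complex IV subunit (chr15:35855641-35868001, minus strand) stood at 177, 151, 130 and 111 CPM. Both Kap1 KD samples were below both controls, and the changes of -0.45 and -0.44 were alike, with a fitted log2 change of -0.45 (SE 0.19). Its exons share 7.01% of their length with Vps13b on the other strand. The libraries were stranded, but whether counting used the strand is not given in the sources used here. It is therefore open how reads in those shared bases were counted. In all, 18 of the 90 genes share exon bases with another gene of the table. The share was largest for Sdhaf1, at 65.9% with E130208F15Rik on the other strand, which had 7 to 11 counts per sample.

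The other decreases were smaller or rested on few counts. Atp5s changed by -0.21 and -0.31 at 2.30 to 3.02 CPM. Ndufa6, an accessory subunit of complex I, stood at 45.3, 43.2, 36.8 and 39.3 CPM, with no overlap and changes of -0.30 and -0.14. Cox7b, a small complex IV subunit, changed by -0.19 and -0.19 at 111, 66.5, 97.7 and 58.2 CPM, and the groups overlapped because the replicates were far apart. Cox7a1 changed by 0.01 and -0.43 at less than 1 CPM in each sample.

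Changes of the core subunits Ndufs1, Ndufv1, Sdha, Sdhb, Uqcrfs1, Uqcrc1, Atp5a1 and Atp5b ran from -0.17 (Ndufs1) to 0.31 (Uqcrfs1) over both pairs. The largest were those of complex III, Uqcrfs1 as given above and Uqcrc1, which changed by 0.19 and 0.27 at 172, 267, 197 and 322 CPM, with overlapping groups. Atp5b stood at 2699, 3320, 3022 and 3597 CPM (changes 0.16 and 0.12) and Atp5a1 at 1519, 1836, 1642 and 1962 CPM (0.11 and 0.10). In both, the replicate 2 samples exceeded the replicate 1 samples and the groups overlapped. Sdha, the flavoprotein that oxidises succinate, stood at 277, 277, 293 and 285 CPM, so that its groups did not overlap although the changes were only 0.08 and 0.04. Its iron-sulfur partner Sdhb changed by 0.19 and 0.07, Ndufv1, which binds NADH, by 0.12 and 0.15, and Ndufs1, an iron-sulfur subunit of the same arm, by -0.07 and -0.17. The 3 c subunit genes changed by 0.04 and 0.12 (Atp5g1), 0.17 and 0.25 (Atp5g2) and 0.13 and 0.19 (Atp5g3).

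The replicate number was then added to the fit, since samples of the same number deviated together from their group means (correlation 0.779) and the first principal component, with 73.0% of the variance, separated the numbers. With this term 631 of 14142 genes (4.46%) were called at the adjusted p and 1.5-fold thresholds, and still 0 of the 85 respiratory genes. DESeq2 with the same term called 232 genes, among them 0 respiratory genes. By edgeR's adjusted p alone, 16 respiratory genes were higher (18.8%), beside 10.1% of all genes, and 2 were lower (2.35%), beside 11.5%. Complex IV held 6 of the 16 higher genes (Cox4i1, Cox5a, Cox5b, Cox6a1, Cox7a2l and Cox8a) and 1 of the 2 lower ones, the other being Ndufa6. Complex II held none. Nothing is read from these shares, because the family was chosen by this comparison.

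The difference between the replicates was not used in choosing the genes, although earlier results of these data were known by then. It was fitted with the group as a covariate in edgeR's quasi-likelihood test. The replicate numbers are only partly given by the labels, and no combination of group and number was repeated. With 2 samples of each number, an exact permutation test of any gene cannot go below p = 0.333. The far smaller adjusted p-values that follow therefore rest on the fitted model. Of the 85 respiratory genes 7 (8.24%) were called, beside 26.5% of all genes. Of these 3 were higher in replicate 2 (3.53%), beside 9.08% of all genes, and 4 were lower (4.71%), beside 17.4%. By the adjusted p alone, 40 of the 85 were higher in replicate 2, beside 31.5% of all genes. Another 16 were lower, beside 32.1%. The median difference of the family was 0.13 on the log2 scale, beside -0.00 over all genes, and it was 0.20, 0.17, 0.11, -0.00 and 0.17 for complexes I to V. DESeq2 called 9 of the family and 2819 of all genes.

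Uqcrc1, Ndufa11 and Ndufa13 were the 3 that were higher. Uqcrc1 stood at 172, 267, 197 and 322 CPM, a log2 difference of 0.67 (SE 0.06) with an adjusted p of 1.47e-28 by edgeR. Ndufa11 stood at 63.0, 98.9, 67.2 and 109 CPM (0.67, SE 0.08, adjusted p = 6.28e-16). Ndufa13, an accessory subunit also known as Grim-19, stood at 76.2, 108, 85.2 and 136 CPM (0.59, SE 0.08, adjusted p = 1.04e-13). In each of them both replicate 2 samples were above both replicate 1 samples.

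Ndufaf4, Cox7b, Uqcrb and Ndufs1 were lower in replicate 2. Ndufaf4 stood at 52.7, 27.3, 47.8 and 27.6 CPM, a log2 difference of -0.87 (SE 0.08, adjusted p = 6.05e-29 by edgeR). Cox7b differed by -0.74 (SE 0.08, adjusted p = 3.52e-19) and Uqcrb, at 53.3, 32.1, 51.0 and 30.7 CPM, by -0.73 (SE 0.07, adjusted p = 7.55e-22). Ndufs1 stood at 156, 105, 149 and 93.2 CPM and differed by -0.63 (SE 0.07, adjusted p = 5.70e-17). The replicate 2 samples of these 4 genes were below the replicate 1 samples in both groups. Ndufa13, Uqcrc1 and Ndufs1 fell short of the thresholds when control replicate 1 was left out (0.52, 0.58 and -0.59) and when Kap1 KD replicate 2 was left out (0.44, 0.55 and -0.53), in fits that had to do without the group term. The family's count of calls was 5 without Kap1 KD replicate 2, 6 without control replicate 1, 12 without Kap1 KD replicate 1 and 15 without control replicate 2.

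**Figure D4:**
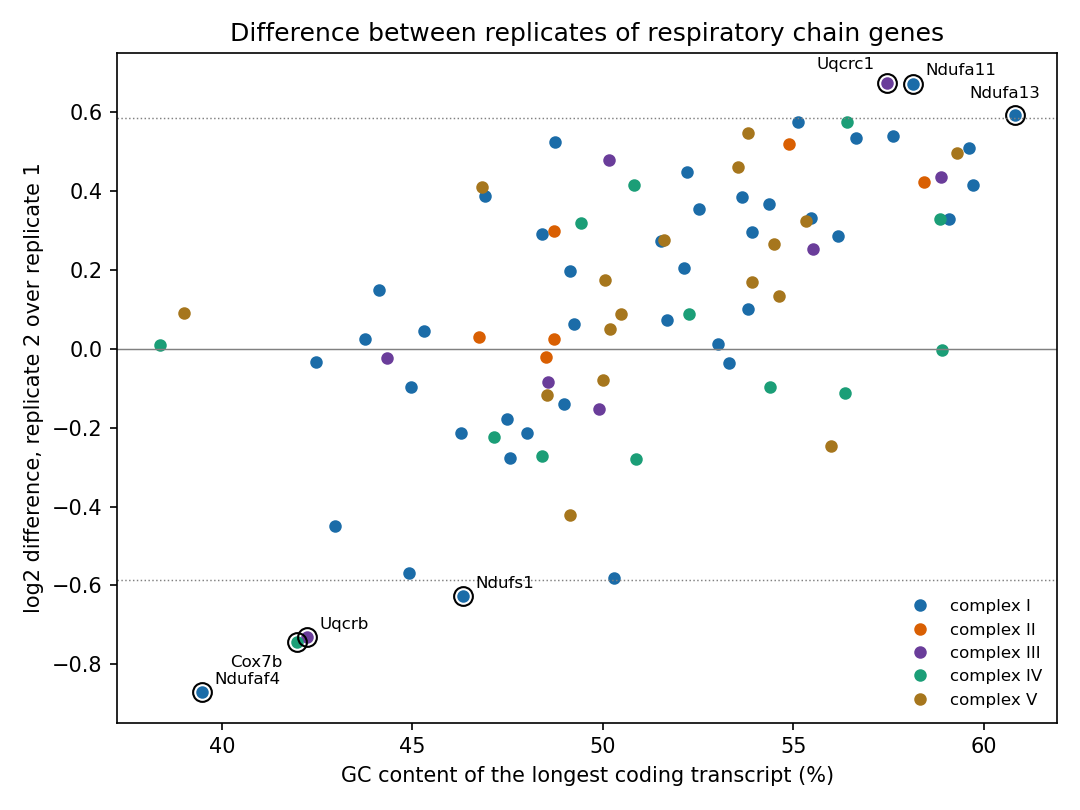
Fitted log2 difference of replicate 2 over replicate 1 against the GC content of the longest coding transcript for the 85 genes, coloured by complex, with black rings around the 7 called genes and dotted lines at 1.5-fold. The called genes that were higher lie between 57.5% and 60.8% GC and those that were lower between 39.5% and 46.3%.

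GC content moved with the difference between replicates. Across the 85 genes Pearson's r between GC content and the replicate difference was 0.63 and Spearman's rho 0.63, and across 12417 genes with a known GC content they were 0.59 and 0.68. These are correlations across genes that share the same 4 libraries, and genes are not independent replicates. With the family split into 3 parts of like size by GC content, the median difference was -0.09 (28 genes, 38.4% to 48.7% GC), 0.17 (29 genes) and 0.35 (28 genes, 53.9% to 60.8%). The difference was alike in both groups, with r = 0.90 between its value in control and in Kap1 KD cells over the 85 genes. GC content went with the change in Kap1 KD more weakly (r = 0.40 over the family, 0.30 over all genes). Its part in any of these differences was not tested.

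The subunits that mitochondria encode themselves were set beside the nuclear ones. These 13 genes, whose products join the nuclear subunits in complexes I, III, IV and V, held 3.75%, 2.68%, 3.68% and 2.41% of the libraries. Their median change in Kap1 KD was -0.14 in each pair. Of the 13, 9 were below 0 in both pairs and 3 above 0 (mt-Nd1, mt-Nd2 and mt-Nd3). Without the replicate term none was called by edgeR (0 with an unadjusted p under 0.05) or by DESeq2 (0 calls). With that term none reached both thresholds in edgeR. By its adjusted p alone 5 were then lower, beside 11.5% of all genes, and 2 higher (mt-Nd1 and mt-Nd3), beside 10.1%. Between replicates, at edgeR's adjusted p and 1.5-fold thresholds, 6 of 13 were lower in replicate 2, beside 17.4% of all genes. None was higher, beside 9.08%. By the adjusted p alone 12 were lower, beside 32.1% of all genes, and 1 was higher (mt-Nd3), beside 31.5%. mt-Cytb, the cytochrome b of complex III, stood at 2411, 1433, 2337 and 1214 CPM, with both replicate 2 samples below both replicate 1 samples. Mitochondrial rRNA, which carries only short poly(A) tails, made up 0.0455% of Kap1 KD replicate 2 and between 0.0155% and 0.0167% of the other 3 libraries.

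Other genes of the pathway were listed for comparison. None of 21 further assembly factors, 4 tested electron carriers, 13 regulators of mitochondrial biogenesis, 16 genes of the tricarboxylic acid cycle and 16 tested genes of glycolysis was called in Kap1 KD by edgeR without the replicate term or by DESeq2, and 0 had an unadjusted p under 0.05 by edgeR. Their median changes in the 2 pairs were -0.01 and 0.03 for the assembly factors, -0.04 and -0.12 for the carriers, -0.05 and -0.07 for the regulators, 0.04 and -0.01 for the tricarboxylic acid cycle and -0.01 and -0.04 for glycolysis. With the replicate term, edgeR's adjusted p alone gave 0 higher and 2 lower for the assembly factors, and 0 and 0 for the carriers. For the regulators these counts were 2 and 2, for the tricarboxylic acid cycle 1 and 0, and for glycolysis 0 and 4. Over all genes 10.1% were higher and 11.5% lower. Among the regulators, Nrf1 stood at 54.6, 59.9, 49.5 and 52.6 CPM, with both Kap1 KD samples below both controls. Gabpa, the DNA-binding subunit of GABP, stood at 45.1, 27.8, 35.3 and 23.6 CPM, with overlapping groups. Esrra, a nuclear receptor that acts on respiratory genes, stood at 48.2, 64.1, 51.9 and 86.1 CPM, with overlapping groups. Between replicates, at the adjusted p and 1.5-fold thresholds, 2 of the 13 regulators and 2 of the 21 assembly factors were lower in replicate 2. So were 2 of the 16 tricarboxylic acid cycle genes. Over all genes 17.4% were lower. No gene of these lists was higher, beside 9.08% of all genes. By the adjusted p alone, 5 assembly factors were higher in replicate 2 and 7 lower, and 1 carrier was higher and 3 lower. The counts higher and lower were 2 and 6 for the regulators, 6 and 6 for the tricarboxylic acid cycle and 10 and 3 for glycolysis. Over all genes 31.5% were higher and 32.1% lower.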

How the data were processed

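The deposited table used here holds raw read counts per Ensembl gene for the 4 mRNA-seq samples; the authors made these counts from single-end reads of poly(A)+ TruSeq stranded libraries, aligned to mm9 with TopHat2 2.0.11 and counted with HTSeq 0.6.1 (versions from the submitters' processing notes). The strand setting of the counting is not given in the sources used here. Other deposited files hold tRNA and snoRNA sequences and were not used. The respiratory genes and all other lists were chosen with earlier results of these data known.

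The whole table was fitted in R 4.3.3 with edgeR 4.0.16 (quasi-likelihood test on genes kept by filterByExpr, with TMM scaling and Benjamini-Hochberg adjustment over 14142 genes), and a gene was called at an adjusted p under 0.05 and a 1.5-fold change. Changes per pair were differences of log2(CPM + 0.5), which understate the changes of low genes. FPKM was computed from TMM-scaled CPM and exon-union length in the NCBIM37 annotation, to which 21806 of 21915 identifiers matched. GC content was that of the longest coding transcript. Scripts were tested on simulated data. Named genes were core subunits, the highest and lowest member of each complex and the isoform families. Also named were the 5 largest increases and decreases in Kap1 KD and the 3 largest differences in each direction between replicates. Called genes were added where no more than 5 were called in a direction. Cox6a2 and Cox6b2 were not analysed here. Other genes named in the text, such as the regulators and mt-Cytb, were picked after their values were seen. Alternatives were DESeq2 1.42.0, median-of-ratios or total-count scaling, no filter, other pseudocounts and lengths, subunits only, the replicate number as a block, and each sample left out. DESeq2 with the block was chosen after seeing the data. The depth of 41566888 counts or more per sample makes counting error small for abundant genes, and the number of samples limits the precision.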

Additional observations from a re-analysis of the deposited data

How the results depend on the processing

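No respiratory gene was called in Kap1 KD against control under any setting tried. The number of all genes called moved from 0 to 3 with DESeq2, to 631 with the replicate block, to 232 with DESeq2 and the replicate block, and to between 3 and 65 when 1 sample was left out, where a lone sample is assumed to vary like the other group. The replicate numbers are only partly given by the labels and pair the samples by no stated batch; the correlation of same-numbered deviations was 0.779. The family's median change of 0.09 was 0.09 with the replicate block, and ran from 0.0098 to 0.20 when 1 sample was left out. Between replicates the family's count of 7 was 9 with DESeq2, median-of-ratios scaling or no filter, and 5 to 15 when 1 sample was left out; its median of 0.13 then ran from 0.13 to 0.21, and the count of all genes, 3748, from 1332 to 4110. Median FPKM with the longest transcript was 69.0, 71.0, 147 and 145 for complexes I, II, III and V, and the mean of the members was 80.1, 247 and 175 FPKM for complexes I, IV and V. With total-count scaling the medians of the replicate 2 pair were -0.013, -0.044, 0.011 and 0.019 for complexes I, II, III and V, that of complex III in the replicate 1 pair was 0.045, and the median over all genes of the replicate difference in Kap1 KD cells shifted to -0.10. The causes were not tested. Of 595 values of 35 single genes under the alternatives, 511 kept their direction and side of the thresholds, 20 passed the thresholds only under the alternative, 6 fell short of them, and 58 changed direction, 0 of which passed the thresholds either way. Of these 58, 50 came from leaving out 1 sample, which leaves the replicate numbers unequal between the groups, and the replicate difference was then fitted without the group. On the log2 scale the change in Kap1 KD ran over these fits from -0.029 to 0.27 for Atp5a1, -0.0059 to 0.31 for Atp5b, -0.15 to 0.30 for Atp5g1, -0.053 to 0.59 for Cox4i1, -0.017 to 0.46 for Cox6a1, -0.20 to 0.13 for Cox7a2, -0.61 to 0.23 for Cox7b, -0.26 to 0.50 for Ndufa11 and -0.11 to 0.56 for Ndufa13, and from -0.37 to 0.31 for Ndufa4, -0.53 to 0.47 for Ndufaf4, -0.48 to 0.21 for Ndufs1, -0.15 to 0.44 for Ndufv1, -0.14 to 0.46 for Sdhb, -0.040 to 0.23 for Uqcr10, -0.47 to 0.35 for Uqcrb and -0.15 to 0.61 for Uqcrc1. The replicate difference ran from -0.10 to 0.27 for Atp5s, -0.58 to 0.047 for Cox5a, -0.42 to 0.22 for Cox5b, -0.45 to 0.017 for Cox6c, -0.55 to 0.25 for Cox7a1 and -0.26 to 0.27 for Cox8a, and from -0.13 to 0.17 for Ndufa6, -0.16 to 0.22 for Ndufb2, -0.063 to 0.022 for Sdha, -0.10 to 0.17 for Sdhd, -1.82 to 1.63 for Trim28 and -0.23 to 0.077 for Uqcrfs1. The other 8 were Ndufa4 in Kap1 KD, 0.0089 with DESeq2, 0.0095 with median-of-ratios scaling and 0.011 with no filter, Cox8a between replicates, 0.016, 0.011 and 0.011 with the same settings and 0.020 without the group term, and Trim28 between replicates, 0.22 without the group term.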
